A study of Homo sapiens with 9 samples.

Results

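The microRNA host genes are the genes of the table whose symbol begins with MIR and ends with HG, the form given to a longer gene that carries 1 or more microRNA (miRNA) hairpins in an exon or intron. This rule took 83 of the 58336 genes, and 82 of the 83 are annotated as long noncoding RNA genes. Nascent transcription was measured by PRO-seq, which labels and sequences the 3′ ends of RNA still held by engaged RNA polymerase, in MEL624, an established human melanoma cell line. The 3 groups were control cells (wild type with a random sgRNA), PCIF1 KO1 (here clone 1) and PCIF1 KO2 (here clone 2), with 3 biological replicate libraries each. PCIF1 is the enzyme that adds a methyl group to the adenosine next to the mRNA cap (m6Am). Every knockout library came from 1 of 2 clones, so a value of a clone cannot be told apart from what is peculiar to that clone. All 3 groups share the MEL624 background, and a fixed number of Drosophila S2 cells (40000) was added to every library. The table used here gives 1 mean per gene and group, so no replicate spread, interval or test could be had, and each difference below is a difference between means with no replicate check. Where 3 counts follow a gene without further words, they belong to control, clone 1 and clone 2, in that order.

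Host genes are transcribed by RNA polymerase II into a primary transcript. DROSHA and DGCR8 cut the hairpins out of it in the nucleus, and DICER1 trims them to mature miRNAs of which bases 2 to 8, the seed, pair with target mRNAs. PRO-seq reads the first step only, so the values below are of host gene transcription and not of mature miRNA. In melanocytes and melanoma, miRNAs of the let-7, miR-221, miR-31, miR-34 and miR-17-92 groups are well known as regulators of growth and differentiation.

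The mature miRNAs are shown first because hosts at unrelated places in the genome give rise to the same seed, which is how the host genes are grouped below. RefSeq entries (GRCh38.p14) matched 192 mature miRNA names in 72 of the host genes. The seed GAGGUAG of the let-7 family lies in 7 host genes with enough counts to compare, and capitals mark the seed in each sequence.
let-7a-5p (MIR100HG, MIRLET7A1HG, MIRLET7BHG): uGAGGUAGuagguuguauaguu
let-7b-5p (MIRLET7BHG): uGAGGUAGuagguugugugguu
let-7c-5p (MIR99AHG): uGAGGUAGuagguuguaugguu
let-7d-5p (MIRLET7A1HG): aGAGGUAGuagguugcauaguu
let-7f-5p (MIRLET7A1HG): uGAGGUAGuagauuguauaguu
let-7i-5p (MIRLET7IHG): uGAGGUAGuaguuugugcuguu
miR-4458 (MIR4458HG): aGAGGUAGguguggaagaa
miR-4500 (MIR4500HG): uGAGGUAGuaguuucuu

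MIR100HG and MIR99AHG share a second seed, that of miR-100 and miR-99a, beside their let-7 hairpin. The miR-181 seed comes from MIR181A1HG and MIR181A2HG, and miR-221 and miR-222 share a seed and a single host, MIR222HG. The last 5 sequences belong to hosts that stood out in the clone comparisons.
miR-100-5p (MIR100HG): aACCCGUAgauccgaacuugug
miR-99a-5p (MIR99AHG): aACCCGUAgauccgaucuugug
miR-181a-5p (MIR181A1HG, MIR181A2HG): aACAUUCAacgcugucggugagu
miR-221-3p (MIR222HG): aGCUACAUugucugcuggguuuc
miR-222-3p (MIR222HG): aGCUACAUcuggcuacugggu
miR-34a-5p (MIR34AHG): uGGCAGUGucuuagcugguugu
miR-4527 (MIR4527HG): uGGUCUGCaaagagaugacugu
miR-23a-3p (MIR23AHG): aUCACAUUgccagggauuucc
miR-27a-3p (MIR23AHG): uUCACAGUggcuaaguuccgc
miR-24-3p (MIR23AHG): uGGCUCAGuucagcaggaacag

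Transcription of the host genes was uneven. A gene was compared when its normalized count, averaged over the 3 group means, was at least 10, and 41 of the 83 host genes (49.4%) passed, against 29.4% of all genes and 22.3% of the long noncoding RNA genes. Of the others, 13 were listed at 0 in every group and 29 lay above 0 but under the floor, 21 of them under 1 count. Among the 41, 27 had at least 50 counts and 19 at least 100. The 6 hosts with at least 500 counts (MIR100HG, MIR222HG, MIR22HG, MIR17HG, MIRLET7BHG and MIRLET7IHG) held 66.8% of the control counts of all 41. The table counted a stretch that was a median 9.08% of the host's span, so values rest mainly on annotated exons and say little about the long introns.

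**Figure D1:**
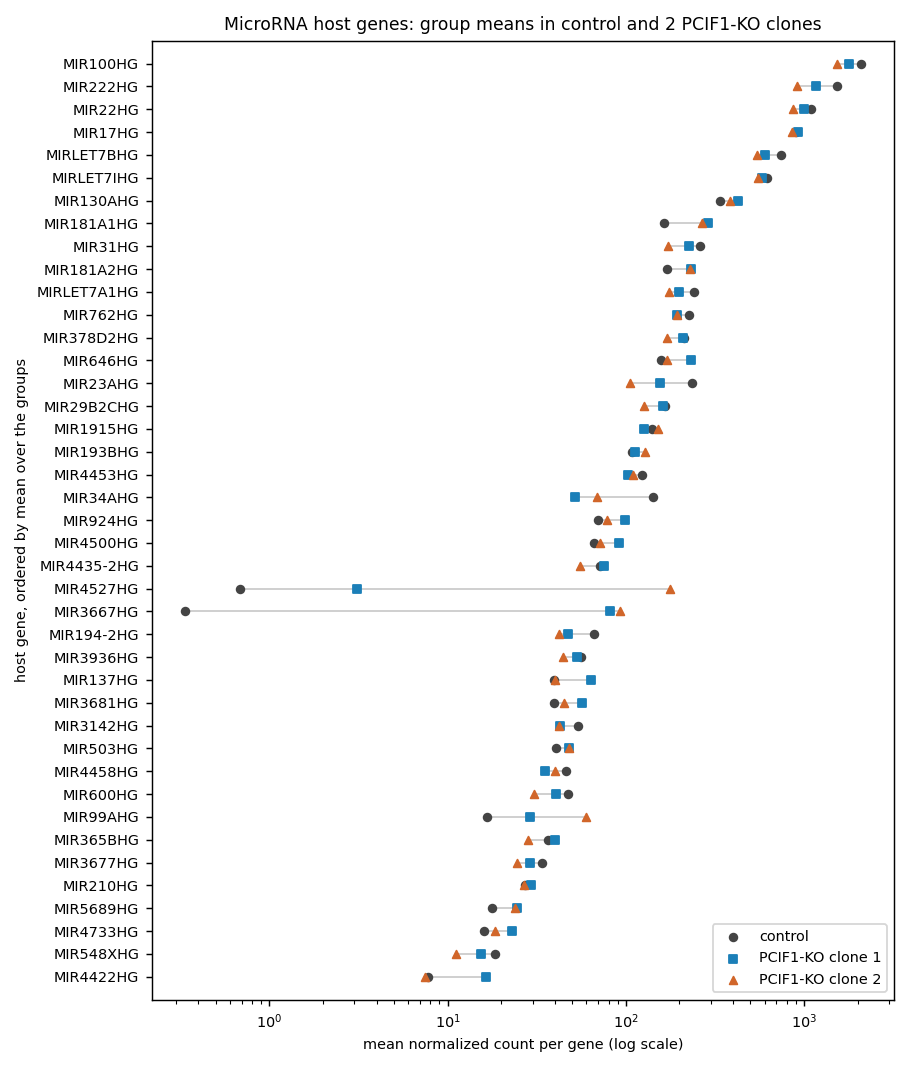
Mean normalized count (log axis) of each of the 41 compared host genes in control, clone 1 and clone 2, 1 point per group mean, ordered by level and with no error bars because the table holds means only. Most hosts have 3 points close together, while MIR3667HG and MIR4527HG have a control point far to the left of a clone's.

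Per length of counted sequence, MIR222HG had the highest level of the 41 compared host genes in control cells, with 550.2 normalized counts per kb, which placed it at percentile 98.3 of all compared genes. MIR22HG followed with 365 per kb, MIR31HG with 351 per kb and MIR17HG with 257 per kb. MIR100HG, which had the most counts, had 189 per kb because its counted sequence is long. The lowest of the 41 were MIR99AHG with 1.47 per kb, MIR4527HG with 0.49 per kb and MIR3667HG with 0.05 per kb. Without replicate values, neighbours in this order cannot be said to differ.

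Several hosts of miRNAs known from other lineages were at or near 0, named here after their values were seen. MIR122HG (the liver miR-122) had 1.36 counts in control and 0 in both clones. MIR223HG (myeloid cells), MIR205HG (epithelium), MIR1-1HG (muscle) and MIR302CHG (pluripotent cells) were listed at 0 in every group. MIR142HG and MIR155HG, whose miRNAs are abundant in blood cells, reached at most 1.04 and 2.35 counts. MIR200CHG, host of an epithelial miR-200 cluster, had 1.43, 0.51 and 0 counts in the 3 groups. The neural MIR9-1HG stayed between 1.48 and 1.97 counts, and MIR124-2HG did not exceed 0.38. Others of this kind did have counts: MIR194-2HG, host of miRNAs of liver and gut, had 66.6, 47.3 and 42.4, MIR3142HG, host of the immune miR-146a, had 53.6, 42.8 and 42.4, and MIR137HG, host of a neural miRNA, had 39.7, 63.9 and 40.3. A mean near 0 says only that transcription was not detectable at this depth, which the submitters give as 50000000 mappable reads in an average library.

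The labelled cell type was checked against 7 melanocyte markers. MITF, the lineage's master transcription factor, had 169, 142 and 259 counts in the 3 groups, and the pigment gene PMEL had 48.4, 21.3 and 23.8. The other 5 (SOX10, MLANA, DCT, TYR and TYRP1) were under the floor in their mean, with TYR at 0 throughout and MLANA at most 2.03. TRPM1, the melanocyte gene that carries miR-211, had 0.67, 3.28 and 2.68 counts. Of 6 markers of other cell types, KRT8 had 385, 371 and 374 counts and COL1A1 had 17.97, 27.8 and 18.4. EPCAM had 12.6, 9.95 and 4.48 (log2 ratio -1.31 in clone 2) and PECAM1 6.44, 7.22 and 6.05, both under the floor in their mean, while the blood markers PTPRC and CD3E reached at most 1.10. PCIF1 itself had 239, 269.6 and 239 counts, which checks no label, since an edited gene can still be transcribed.

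Few host genes differed from control by at least 2-fold, the size used here to call a difference, computed as the log2 ratio after adding 1 to each count. In clone 1, 3 of the 41 hosts were called higher (MIR3667HG, MIR4527HG and MIR4422HG), against 2.27% of all 17149 compared genes, and 1 was called lower (MIR34AHG), against 1.32%. In clone 2, 3 were called higher (MIR4527HG, MIR3667HG and MIR99AHG), against 3.34%, and 2 lower (MIR23AHG and MIR34AHG), against 1.90%. The hosts' shares were 7.32% higher in each clone and 2.44% and 4.88% lower, and at 1 to 3 genes they give no order against the background. The floor is set on the mean of the groups, so a clone's own counts can carry a gene over it. MIR3667HG, MIR4527HG and MIR4422HG, with 0.34, 0.68 and 7.73 counts in control, passed only in this way. Of the hosts called higher than control, MIR99AHG alone was over the floor in control (16.7 counts). Shares with a floor on control counts were not taken. Within 1.5-fold of control lay 33 hosts in clone 1 and 30 in clone 2. Both comparisons use the same control mean, so they are not independent of each other.

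The median host gene was near control in clone 1 and slightly below it in clone 2. The median log2 ratio of the 41 was -0.01 in clone 1 and -0.16 in clone 2, beside -0.00 in both clones for all compared genes. With no minimum count, over 70 hosts, the clone 2 median was -0.04. In clone 2 against clone 1, 2 hosts were called higher (MIR4527HG and MIR99AHG), against 1.05% of all genes, and 1 was called lower (MIR4422HG), against 0.933%. In that comparison 32 of 41 hosts (78%) lay below 0, with a median of -0.20. The share was 49.8% of all compared genes and 49.9% of compared long noncoding RNA genes. Of the miRNA-processing genes described below, 26 of 32 lay below 0 (median -0.12). Of the other miRNA-carrying genes described below, 22 of 37 did (median -0.06). The lean was thus not seen in the host genes alone. With no minimum count the hosts' share below 0 was 57.1%, against 48.4% of all genes, and their median -0.07. With a floor of 50 the hosts' share was 74.1% (48.6% of all genes). After quantile normalization it was 80.5% (53.2%), and per kb 81.8% (49.8%).

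**Figure D2:**
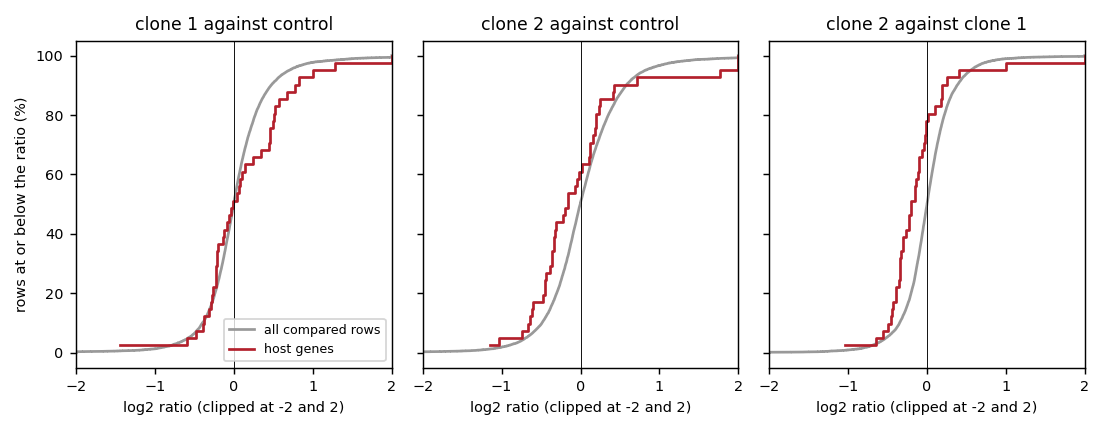
Cumulative share of genes (vertical axis, percent) by log2 ratio (horizontal axis, values past -2 or 2 drawn at the edge) for the 41 compared host genes and for all 17149 compared genes, in clone 1 against control, clone 2 against control and clone 2 against clone 1. The host curve lies to the left of the curve of all genes over most of the range in the last panel, where 78% of hosts are below 0.

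As a yardstick, the clones were compared with each other over genes of like count. For genes of 50 to 200 counts, the central 95% of log2 ratios of clone 2 to clone 1 ran from -0.50 to 0.63, and for genes of 10 to 50 counts from -1.01 to 1.05. For 200 to 1000 counts the limits were -0.35 and 0.53, and above that -0.38 and 0.58. These limits describe how far the clones lay apart and are not an error of replicates. Over the classes of count, 7.46% to 9.14% of all compared genes lay outside them in clone 1 against control and 10.7% to 16.7% in clone 2, so a host outside the limits is no rare case. MIR34AHG, MIR23AHG, MIR181A1HG and MIR222HG were outside in both clones. MIR99AHG, MIR194-2HG, MIR31HG, MIRLET7BHG, MIRLET7A1HG and MIR100HG were outside in clone 2 only. MIR4422HG was inside in both, though only its clone 1 count places it in its class. MIR3667HG and MIR4527HG were not judged this way, since only a clone's counts place them in a class that their control counts are far under.

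MIR3667HG, a host gene on chromosome 22 (chr22:49414524-49657542, minus strand, hg38), was all but silent in control and transcribed in both clones. Its mean count was 0.34 in control cells against 81.1 in clone 1 and 92.7 in clone 2. The log2 ratios were 5.94 and 6.13, sizes that depend on the count of 1 added to a control near 0. An unnamed gene within it, ENSG00000235111, had 0, 9.46 and 18.4 counts, whereas the hairpin gene MIR3667 itself had no more than 0.33. Its nearest compared genes are EPIC1 and BRD1, and the 20 nearest had a median of -0.03 in clone 1 (range -0.85 to 0.61) and -0.09 in clone 2 (range -1.04 to 0.76).

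MIR4527HG (chr18:47285725-47594550, plus strand) passed 10 counts in clone 2 alone. It had 0.68 counts in control cells against 3.09 in clone 1 and 176 in clone 2. The log2 ratio was 6.71 in clone 2 against control and 5.44 in clone 2 against clone 1. The ratio of 1.28 in clone 1 rests on 3.09 counts in that clone and was 0.51 when 5 was added in place of 1. The hairpin gene MIR4527 had 0, 0 and 23.2 counts, and ENSG00000279367 and ENSG00000261307, which overlap the host on its own strand, had 0, 1.18 and 109 and 0.37, 1.28 and 21.5. The host and these 3 genes were each highest in clone 2. The nearest compared genes were IER3IP1 and SMAD2, and the 20 nearest ranged from -2.85 to 0.67 in clone 2, with a median of -0.13.

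MIR34AHG (chr1:9148011-9198906, minus strand) carries miR-34a, a miRNA known as a direct target of p53 that restrains the cell cycle. It had 142 counts in control cells against 51.7 in clone 1 and 69.1 in clone 2, so both clones lay well under control. The log2 ratios were -1.44 and -1.03, that is 2.71-fold and 2.04-fold lower. The value of clone 2 sits at the 2-fold line, being -0.99 with 5 added and -0.95 per kb. LNCTAM34A, the antisense gene that overlaps it, had 24.9, 13.3 and 18.7 counts (log2 ratios -0.86 and -0.39). The neighbours GPR157 and H6PD flank it, and the 20 nearest compared genes had medians of -0.06 and -0.09. In clone 1 none of them was as low as MIR34AHG, the lowest being -1.09, but in clone 2 their range reached -2.46. The hairpin gene MIR34A, which lies in an exon of the host, was listed at 0 in every group.

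The promoter of MIR34AHG is printed because this host was low in both clones and RefSeq gives it an entry, at chr1:9182289-9182588 on the minus strand (GRCh38.p14). The capital marks the annotated first transcribed base, an A, which lies 16568 bases inside the gene start used above.
MIR34AHG promoter: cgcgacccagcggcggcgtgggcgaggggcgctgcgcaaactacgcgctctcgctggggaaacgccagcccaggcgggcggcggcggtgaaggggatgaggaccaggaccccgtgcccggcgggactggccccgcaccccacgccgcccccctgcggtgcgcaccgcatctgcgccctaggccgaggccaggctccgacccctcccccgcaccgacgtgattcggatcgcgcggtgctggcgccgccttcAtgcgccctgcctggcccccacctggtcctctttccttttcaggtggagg

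This stretch of 300 bases is 75.0% G and C and holds 38 CG pairs, against a median of 13 over the 27305 promoters of the table. It holds the GC box letters GGGCGG (either strand), as do 44.5% of all promoters.

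MIR23AHG (chr19:13823880-13842928, minus strand) carries the miR-23a, miR-27a and miR-24-2 hairpins, a cluster studied in muscle, blood and tumour growth. It had 235 counts in control cells against 155 in clone 1 and 105 in clone 2. The log2 ratios were -0.60 and -1.15 (1.51-fold and 2.22-fold lower). Its 3 hairpin genes were lower too, MIR24-2 with 23.4, 17.8 and 15.3 counts, MIR27A with 16.5, 12.6 and 11.96, and MIR23A with 24.8, 22.9 and 18.7. Their log2 ratios, from -0.11 to -0.58, lay inside the limits between the clones for genes of 10 to 50 counts (-1.01 to 1.05). Whether they share reads with the host is not known. ZSWIM4, which overlaps the host on the other strand, had 154, 171 and 223 counts, the opposite order. The 20 nearest compared genes, among them ENSG00000267582 and NANOS3, had medians of -0.29 and -0.24.

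MIR99AHG (chr21:15928296-16646364, plus strand), also a host of let-7c and miR-125b-2, had 16.7 counts in control cells against 29.2 in clone 1 and 59.5 in clone 2. The fold over control was 1.71 in clone 1 and 3.42 in clone 2, and clone 2 was 2.00-fold over clone 1. The last value was 0.92 on the log2 scale with 5 added and 0.99 after quantile normalization. The nearest compared gene on each side was higher in the clones as well, USP25 with 116, 151 and 168 counts and BTG3, a gene that slows cell division, with 112, 174 and 210. Their part, or that of the region, in the MIR99AHG values was not tested. The median over the 14 nearest compared genes was 0.18 in clone 1 (range -0.54 to 0.70) and 0.31 in clone 2 (range -0.67 to 0.90). Of the 14, 10 lay above 0 in clone 1 and 11 in clone 2.

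MIR4422HG had 7.73 counts in control cells against 16.5 in clone 1 and 7.47 in clone 2. Its log2 ratio of 1.00 in clone 1 is just on the 2-fold line, was 0.75 with 5 added, and lay inside the spread between the clones. USP24 and ENSG00000260971 are its nearest compared genes, and the 20 nearest had medians of 0.07 and 0.01.

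**Figure D3:**
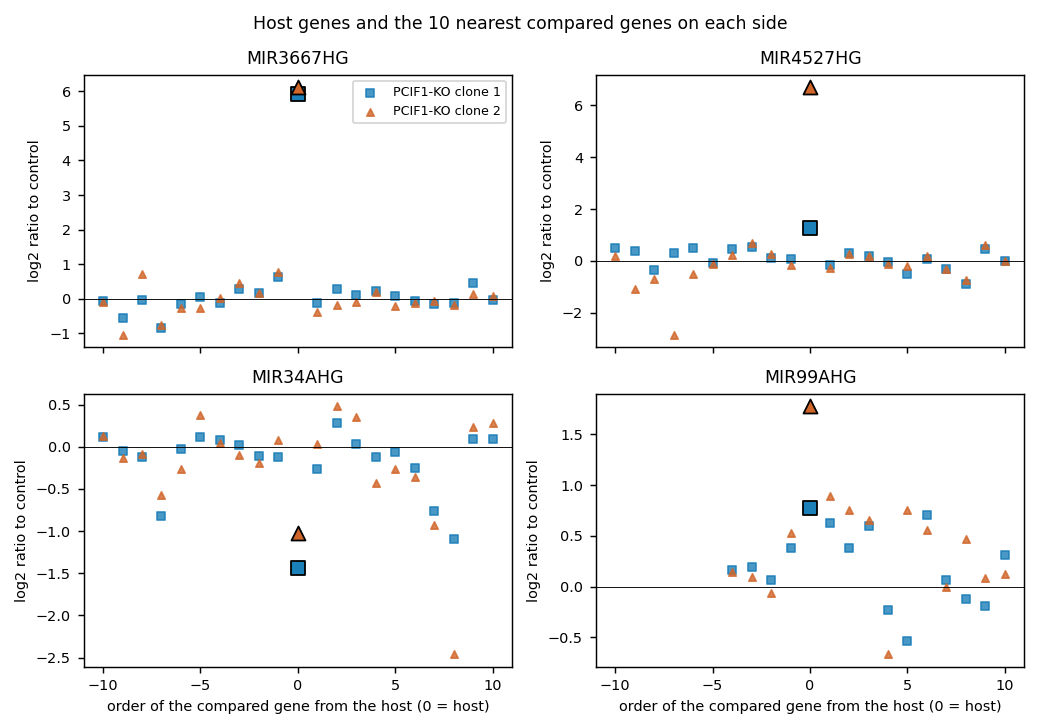
Log2 ratio to control (vertical axis) of MIR3667HG, MIR4527HG, MIR34AHG and MIR99AHG (at 0 on the horizontal axis) and of up to 10 nearest compared genes on each side, by rank of distance, with 1 point per gene and clone. MIR3667HG stands above all its neighbours in both clones and MIR4527HG in clone 2, while near MIR99AHG several genes are above 0 too.

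The hosts of the let-7 family held many of the host gene counts, which also grow with the counted length. Per kb in control, the highest of them was MIR100HG with 189, against 550.2 for MIR222HG. MIR100HG on chromosome 11, which carries let-7a-2, miR-100 and miR-125b-1, had 2076 counts in control cells against 1787 in clone 1 and 1522 in clone 2, and MIRLET7BHG had 741, 602 and 547. MIRLET7A1HG, host of let-7a-1, let-7f-1 and let-7d, had 242, 200 and 174 counts. Control was highest and clone 2 lowest in each of the 3, with log2 ratios in clone 2 of -0.45, -0.44 and -0.48. MIRLET7IHG had 617, 580 and 553 counts and MIR4458HG 46.2, 35.1 and 40.1. MIR4500HG had 66.1, 91.4 and 71.8 counts and, like MIR99AHG, was above control in both clones. Of the 7 hosts of this seed, 5 were under control in both clones, none of them by 2-fold. Summed over the 7, the counts were 3805, 3324 and 2967, or log2 ratios of -0.19 and -0.36. The sum is dominated by MIR100HG and is not a level of mature let-7.

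MIR222HG (chrX:45745210-45770274, minus strand), host of miR-221 and miR-222, which are known in melanoma for lowering the cell cycle inhibitor CDKN1B and the receptor KIT, had 1532 counts in control cells against 1166 in clone 1 and 913 in clone 2. The log2 ratios were -0.39 and -0.75, lower in both clones and lowest in clone 2. ENSG00000269902, a gene overlapping it on the same strand, had 162, 97.8 and 99.4 counts. Its hairpin genes did not follow it: MIR222, with 42.9, 51.9 and 70.4 counts, was above control in both clones (log2 ratios 0.27 and 0.70), and MIR221, with 43.7, 39.0 and 55.8, in clone 2 only (-0.16 and 0.35).

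MIR31HG, whose miRNA is known in invasion and whose transcript is known to bind at the CDKN2A locus, had 261 counts in control cells against 226 in clone 1 and 172 in clone 2. MIR22HG, a host induced by many stresses, had 1089, 996 and 863 counts. MIR17HG, host of the miR-17-92 cluster that MYC drives in many tumours, had 897, 921 and 857 counts and was within 0.07 of control on the log2 scale in both clones. MIR194-2HG had 66.6, 47.3 and 42.4 counts, with log2 ratios of -0.49 and -0.64.

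Both hosts of the miR-181a and miR-181b pair were above control in both clones. MIR181A1HG had 163 counts in control cells against 289 in clone 1 and 269 in clone 2, and MIR181A2HG had 170, 232 and 228. The log2 ratios were 0.83 and 0.72 for the first and 0.45 and 0.42 for the other, so neither reached 2-fold.

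MIR130AHG was above control in both clones as well, with 335, 426 and 383 counts. MIR646HG had 157, 233 and 170 counts, and MIR137HG, host of a miRNA known to target MITF, had 39.7, 63.9 and 40.3, so these hosts were above control mainly in clone 1. MIR137HG overlaps DPYD, a gene on the same strand that had 215, 338 and 355 counts. The reads of the 2 genes may not be separable.

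The remaining hosts were less than 2-fold off control in both clones. MIR762HG had 226, 193 and 195 counts, MIR378D2HG 212, 210.1 and 170.0, and MIR29B2CHG, host of miRNAs that target collagens, 165, 161 and 127. MIR1915HG had 139, 127 and 151 counts, MIR193BHG 108, 113 and 128, and MIR4453HG 123, 102 and 110.2. All 6 were within 1.5-fold of control in both clones. MIR924HG had 69.9, 98.8 and 78.0 counts and MIR3681HG 39.3, 56.9 and 45.0. MIR4435-2HG had 71.5, 75.7 and 55.4 counts. It overlaps BCL2L11, a gene for a cell death factor, on the other strand, and that gene had 757, 1049 and 1022. MIR3936HG had 55.8, 53.5 and 44.5 counts, MIR3142HG 53.6, 42.8 and 42.4, and MIR503HG 40.7, 48.2 and 47.9. Among the hosts under 50 counts, MIR600HG had 47.1, 40.4 and 30.4, MIR365BHG 36.4, 40.1 and 28.2, and MIR3677HG 34.0, 28.8 and 24.5. MIR210HG, whose miRNA is a known marker of low oxygen, had 27.2, 29.3 and 26.9, within 1.5-fold of control in both clones. MIR5689HG had 17.7, 24.5 and 23.8 counts, MIR4733HG 15.9, 23.0 and 18.5, and MIR548XHG 18.3, 15.5 and 11.2.

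The rows of the hairpins themselves could be compared with those of their hosts only in part. The table has 137 annotated miRNA genes inside host genes, 130 of them on the same strand, in 81 hosts. Exon and intron here follow GENCODE 44, and the annotation used for counting may differ. The counted length equalled the exon length of GENCODE 44 in only 25 of the 83 host genes. In the 41 compared hosts, 24 of 36 same-strand hairpins that overlap an exon of the host were listed at 0 in every group, against 5 of 34 in introns. All 6 hairpins of MIR17HG, as well as MIR22 and MIR34A, were among those at 0, although their hosts had many counts. How reads that fall in more than 1 gene were counted is not given in the sources used here, so a hairpin at 0 is no sign of absent transcription.

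Of the same-strand hairpin genes, 14 had a mean of at least 10 counts, 7 in exons and 7 in introns of GENCODE 44. One on the opposite strand passed as well, MIR4519 in MIR762HG, with 81.0, 109 and 104 counts (log2 ratios 0.43 and 0.35). The 7 in exons lie in MIR23AHG, MIRLET7A1HG and MIR222HG. The counted lengths of these hosts were 1774, 1435 and 2785 bases, against exon lengths in GENCODE 44 of 19049, 4656 and 2866. Whether those hairpins lie in an exon of the annotation used for counting is thus not known. The highest on the same strand were MIRLET7I with 159, 127 and 104 counts in the 3 groups, and MIRLET7A2 with 111, 113 and 98.2. MIRLET7I followed the order of its host, with log2 ratios of -0.32 and -0.61 beside -0.09 and -0.16 for MIRLET7IHG. MIR100 had 50.7, 60.2 and 46.8 counts and MIR125B1 47.9, 52.1 and 46.1, neither with the stepwise order of MIR100HG. MIR31 had 53.1, 46.1 and 48.2 counts. A hairpin of this length collects few reads, so its counting error is larger than that of the host.

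**Figure D4:**
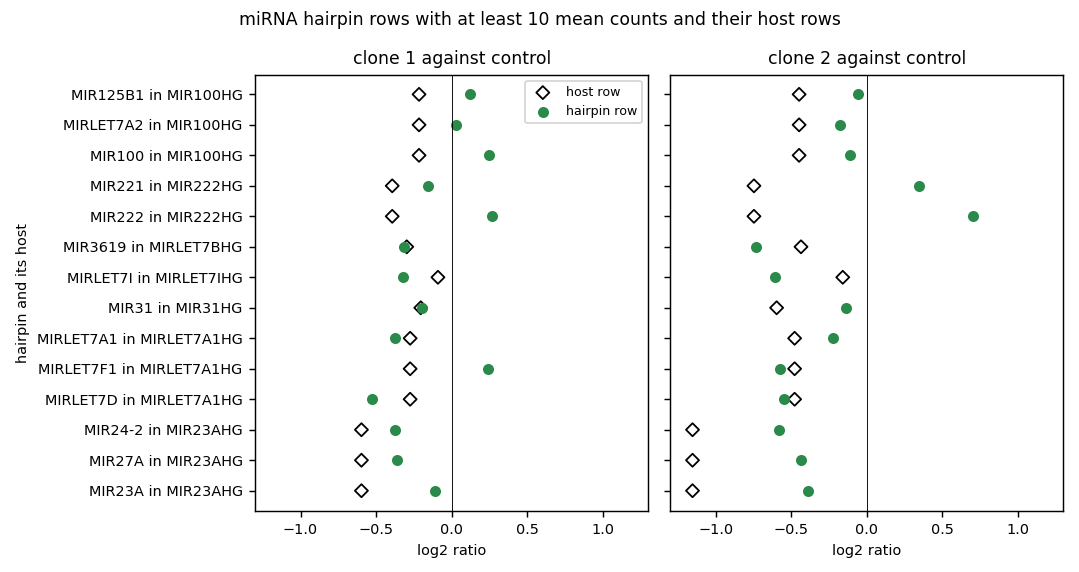
Log2 ratio to control of each of the 14 same-strand hairpin genes with a mean of at least 10 counts and of the host gene that holds it, in clone 1 and clone 2. The hairpins of MIR23AHG lie below 0 as their host does, and MIR222 lies above 0 in both clones while MIR222HG lies below 0.

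Overlap with other genes limits what can be read from a host. A compared gene that is no miRNA overlapped 22 of the 41 hosts, on the same strand in 10 and on the opposite strand in 16. The strand setting of the counting is not given in the sources used here. In each clone, 34 of the 41 hosts had a ratio inside the range of their nearest compared genes. That range runs from the lowest to the highest of up to 20 genes, so most genes could fall inside it. The same share was not taken over all compared genes, so the count says nothing particular to the hosts.

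The annotated first base of the host transcripts was an A, the base PCIF1 can methylate next to the cap, in 17 of the 36 compared hosts with a RefSeq promoter (47.2%), against 44.3% of all promoters in the table. Hosts with an A had a median log2 ratio of 0.04 in clone 1 and -0.34 in clone 2, and the 19 hosts with another first base had -0.09 and -0.16. Over all compared genes with a promoter, the medians were 0.01 and 0.02 for those with an A (n = 5225), and -0.01 and -0.00 for the others (n = 6253). RefSeq and GENCODE starts were within 10 bases of each other for only 12 of the 36 hosts, so the base at which transcription begins in these cells is unsure. The E-box letters CACGTG occurred in none of the 36 windows of 300 bases and in 7.41% of all promoters, CATGTG in 7 and in 11.3%, TATAAA in 4 and in 12%, and TGACTCA in 2 and in 4.9%, each on either strand.

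The genes that process miRNAs were close to control. Of a list of 33, 32 were compared, and none differed by 2-fold in either clone or between them. Of all compared genes, 2.27% were higher and 1.32% lower in clone 1, 3.34% and 1.90% in clone 2, and 1.05% and 0.933% between them. At such shares a list of 32 would hold few called genes. The list medians were -0.05 in clone 1 and -0.15 in clone 2. DROSHA had 357, 331 and 348 counts and DICER1 194, 188 and 179. The largest mean ratios over both clones belonged to DIS3L2, which degrades let-7 precursors (125, 196 and 169.8 counts), and ERH, a partner of DGCR8 (420.4, 642 and 543). LIN28B, which blocks let-7 maturation, had 88.7, 123 and 106 counts, and TNRC6C, a partner of the Argonaute proteins, had 169, 143 and 125. In clone 2 alone the highest ratio was that of ZSWIM8, a ubiquitin ligase subunit that acts in miRNA decay, with 129, 116 and 175 counts (log2 ratios -0.14 and 0.44). The 20 compared genes nearest DIS3L2 had medians of 0.60 and 0.58, beside 0.64 and 0.43 for DIS3L2. The part of the region in its value was not tested. For the others the medians of the 20 nearest lay closer to control. They were -0.03 and -0.05 for ERH, -0.01 and 0.03 for LIN28B, and -0.03 and -0.13 for TNRC6C.

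Genes that carry a miRNA but are named for something else were given the same look. Of 44 on a list, 37 were compared, with medians of -0.01 and -0.02. In clone 1, 1 was called higher, against 2.27% of all compared genes, and in clone 2 1, against 3.34%. At 1 gene each, these counts give no order against the background. SLIT2, a guidance ligand that carries miR-218-1, had 25.1, 64.1 and 30.9 counts, so it was high in clone 1 alone. EGFL7, a vascular gene with miR-126 in an intron, had 6.31, 12.8 and 16.7, and so passed the floor only through the clones. PANK2, a coenzyme A synthesis gene with miR-103a-2, had 941, 550.4 and 528 (log2 ratios -0.77 and -0.83), and the 20 compared genes nearest to it had medians of -0.66 and -0.81. The part of that region in its value was not tested. DNM3, a dynamin gene with miR-199a-2 and miR-214 on its other strand, had 13.4, 26.6 and 15.0. The 20 nearest compared genes had medians of 0.05 and -0.04 for SLIT2, -0.29 and -0.15 for EGFL7, and 0.07 and -0.03 for DNM3.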

How the data were processed

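PRO-seq libraries of MEL624 control cells and 2 PCIF1-knockout clones (9 in all, paired reads of 42 nt) were processed by the authors to 1 deposited table of signal, the mean normalized count per kb in each group. The header has 6 names for rows of 5 cells, so columns were assigned by the header's order after the missing symbol; the unit is as the header gives it. Tools listed in the submitters' processing notes are cutadapt 1.14 and Bowtie 1.2.2, then featureCounts, DESeq2 and the builds hg38, dm3 and GRCh38.p12. Not given in the sources used here are their roles, the feature and strand counted, and whether the spike-in set the scale. No other column of sample values was left unused (0).

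From the table, a count was computed as value times length in kb, and log2 ratios after adding 1. Genes whose 3 group means averaged 10 or more entered the comparisons (17149). Called means at least 2-fold. Counts summed to 3760730 for control cells, 3759168 for clone 1 and 3823178 for clone 2, which is a normalized total and not depth. Since the table holds 1 mean per group, no test was run, and p-values are not given. Positions are from GENCODE 44 (57754 of 58336 genes matched by identifier), sequences and promoters from RefSeq (GRCh38.p14; most upstream entry). All compared host genes are named, then list members past 2-fold or among the 4 largest, and genes that overlap or flank a called host; other genes given were chosen after their values were seen. The members and lists were chosen with earlier results of these data known. Python 3.11.15, numpy 2.4.6, pandas 2.3.3 and matplotlib 3.10.9 were used. The 2-fold rule was also run on simulated counts with planted changes and counting noise alone. That simulation held no spread between replicates or clones, so it is no check of the calls made here. Alternatives were pseudocounts of 0.5 and 5, floors of 0 and 50, rescaling by median of ratios, quantile normalization, and values per kb.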

Additional observations from a re-analysis of the deposited data

How the results depend on the processing

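No paired analysis was possible because the table holds 1 mean per group, so replicate letters shared by the groups cannot be used, and leaving out a replicate could not be run either. Of 63 alternative values of the host gene counts and medians, 44 stayed within the limits set and 19 moved. No called host gene changed direction under any alternative run. In what follows, the share of all genes that passed the same floor is given in brackets after each host count. With a pseudocount of 5, 1 host was called higher in clone 1 (1.77%) and 1 lower in clone 2 (1.24%). In clone 2 against clone 1, 1 was higher (0.787%) and 0 lower (0.519%). With no floor, over 70 hosts, 4 were lower in clone 1 (4.12%), and 5 higher (5.15%) and 5 lower (5.26%) in clone 2. In clone 2 against clone 1, 4 were then higher (3.03%) and 2 lower (3.22%). The host medians with no floor were -0.040 in clone 2 and -0.068 in clone 2 against clone 1. With a floor of 50, clone 2 against clone 1 had 1 higher (0.336%) and 0 lower (0.201%), and quantile normalization left 1 higher there (1.03%). Per kb, 1 host was higher in clone 1 (2.41%), and 1 higher (3.24%) and 1 lower (3.09%) in clone 2. In clone 2 against clone 1, 1 was higher (1.68%) and 0 lower (2.01%) per kb. Only 33 hosts passed the floor on that scale. Counts near 0 set the size of the ratios of MIR3667HG and MIR4527HG, and the spread between replicates is unknown for every value.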

Other observations

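Among the host genes below the floor, 2 reached 10 counts in a group. MIR497HG, host of miR-497 and miR-195, had 10.9, 3.96 and 10.3 counts (control, then clone 1, then clone 2). MIR3171HG, a pseudogene by annotation, had 1.45, 10.9 and 3.10. Within the span of MIR31HG, the interferon gene IFNE had 74.3, 51.4 and 31.6 counts (log2 ratios -0.52 and -1.21) and SNORD39 had 43.3, 28.4 and 14.5 (-0.59 and -1.51), larger ratios than those of the host itself (-0.20 and -0.60). The hairpin gene MIR193B had 1.85, 3.54 and 9.84 counts, while its host MIR193BHG had 108, 113 and 128. These values have no replicate check.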
